A study of Rattus norvegicus with 11 samples.

Results

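The miR-17-92 cluster is a group of 6 miRNA hairpins (miR-17, miR-18a, miR-19a, miR-20a, miR-19b1 and miR-92a1) that lie side by side on rat chromosome 15 and were counted here in islets of 2 ages. Its rows were chosen by name, as sense rows whose name begins with 1 of these hairpins, which gave 13 of the 950 deposited rows. Of the 13 rows, 11 lie on chromosome 15, between 103640915 and 103641676 on the plus strand of Rnor_5.0, a span of 762 bases. The other 2 rows, miR-17-2-5p and miR-17-2-3p, were matched by name but lie on chromosome X, in the gene that RefSeq calls Mir106a, a member of the miR-106a-363 paralog cluster. They are reported apart from the cluster. The 5p arm of the miR-92a1 hairpin carries the name miR-92a-5p in the files, so the name rule missed it. Its place on chromosome 15 (103641619 to 103641641) and its distance to the other arms match RefSeq's miR-92a-1-5p, and it is described as a neighbour and not counted as a member. No antisense row carried a member's name.

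Islets, the endocrine cell clusters of the pancreas, came from Sprague-Dawley rats in 2 groups. The adult group has 6 libraries from males aged 3 months, labelled as 12 weeks, and the P10 group has 5 libraries from pups aged 10 days, labelled as 1.5 weeks. All animals are labelled as controls, no allele or agent is named, and since the adults are all male while a sex is given for adults only, age cannot be told apart from sex. Total RNA of whole islets was sequenced after small RNA library preparation, and the labels call the libraries biological replicates without saying whether one pools several animals. Library totals ran from 1432929 to 2847837 counts in adults and from 1599157 to 4483017 counts at P10.

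The 6 hairpins are cut from 1 primary transcript, which in mouse and human is driven by MYC and E2F factors and is abundant in dividing cells. Its members fall into seed families: a miRNA's seed, its bases 2 to 8, pairs with target transcripts, so miRNAs of one seed share many targets. In mouse and human, miR-17 and miR-20a repress the cell-cycle inhibitor CDKN1A, miR-18a and miR-19 repress the anti-angiogenic factors CTGF and thrombospondin-1, and miR-92a restrains vessel growth. Rodent beta cells divide often in the suckling period and seldom in adults.

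The mature sequences of the more abundant arm of each hairpin are shown from 5′ to 3′ (RefSeq, GRCr8 table) with the seed in capitals, since the seeds define the families into which the results fall. They form 4 seed groups: miR-17 with miR-20a, miR-18a alone, miR-19a with miR-19b, and miR-92a.
miR-17-5p: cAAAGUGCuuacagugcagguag
miR-20a-5p: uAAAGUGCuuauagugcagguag
miR-18a-5p: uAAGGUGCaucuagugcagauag
miR-19a-3p: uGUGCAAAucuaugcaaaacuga
miR-19b1-3p: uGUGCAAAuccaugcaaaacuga
miR-92a1-3p: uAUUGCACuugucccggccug
Counted from 1 at the 5′ end, miR-20a-5p differs from miR-17-5p by C1U and C12U, and miR-19b1-3p differs from miR-19a-3p by U11C. All 29 arms looked up, the paralogs included, had a RefSeq mature sequence.

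Members of the cluster also have copies with the same mature letters on chromosome X, so a read of the mature arm alone cannot be placed. The 3 pairs of hairpins that yield an identical leading arm are shown with both mature arms in capitals. The letters outside the identical arm, those of the other mature arm included, are what sets the loci apart.
Mir17: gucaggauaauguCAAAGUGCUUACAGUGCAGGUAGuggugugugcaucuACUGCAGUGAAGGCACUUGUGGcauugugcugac
Mir106a: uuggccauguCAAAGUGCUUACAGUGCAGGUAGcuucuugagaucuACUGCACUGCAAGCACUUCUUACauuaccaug
Mir19b1: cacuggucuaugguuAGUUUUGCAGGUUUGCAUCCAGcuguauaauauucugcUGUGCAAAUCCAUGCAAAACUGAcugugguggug
Mir19b2: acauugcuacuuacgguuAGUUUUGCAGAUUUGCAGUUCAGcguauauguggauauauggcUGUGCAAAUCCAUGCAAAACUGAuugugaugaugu
Mir92a1: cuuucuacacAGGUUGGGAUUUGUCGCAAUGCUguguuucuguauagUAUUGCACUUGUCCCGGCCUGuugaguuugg
Mir92a2: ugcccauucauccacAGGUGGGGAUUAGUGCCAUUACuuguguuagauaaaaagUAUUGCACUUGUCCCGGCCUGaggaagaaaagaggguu
The files gave these loci unequal counts. miR-17-5p took 91.2% ± 6.41 of the reads given to it and miR-17-2-5p in adults and 88.8% ± 2.66 at P10 (SD, n = 6 and 5). miR-19b1-3p took 71.8% ± 4.15 of the reads given to it and miR-19b2-3p in adults and 71.2% ± 2.43 at P10. miR-92a1-3p took 90.9% ± 1.04 of the reads given to it and miR-92a2-3p in adults and 94.0% ± 0.951 at P10. How the authors placed such reads is not given in the sources used here, so the split between loci is uncertain, and the level changes and read ratios of these 3 arms are also given below with both loci added together. The arm usage and the seed shares use the reads as the authors placed them.

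The cluster was lower in adult islets at every leading arm. Summed over its 11 chromosome 15 rows it held between 677 and 1070 CPM (read counts scaled to a common, TMM-adjusted library size) in the 6 adult libraries, with a median of 768.9, and 2386, 2289, 2208.5, 2421 and 1982 CPM in P10 replicates 1, 3, 4, 5 and 6. The groups did not overlap, and the mean at P10 was 2.82 times that in adults. Scaled to plain library totals, with no TMM factor, the cluster held 731 ± 85.9 CPM in adults and 2498 ± 372 CPM at P10 (SD, n = 6 and 5), a ratio of 3.42. Since these are whole islets, fewer cells of a type and less RNA per cell cannot be told apart.

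With edgeR's quasi-likelihood test over all miRNAs and Benjamini-Hochberg adjustment (threshold 0.05), 9 of the 13 rows passed the filter on low counts, and all 9 fell in adults with groups that did not overlap. Across all 457 tested miRNAs 29.5% were lower in adults by the same test, 18.4% were lower by at least 2-fold, and 16.4% were lower without overlap. The balance over all miRNAs depended on the scaling: 135 were lower and 97 higher with TMM factors, 187 lower and 54 higher with plain library totals, 114 lower and 121 higher with DESeq2 size factors, and 103 lower and 127 higher with upper-quartile factors. The 9 rows were lower under each of these. The count of 9 is not support in itself: 5 of the 9 (miR-17-3p, miR-18a-5p, miR-18a-3p, miR-20a-5p and miR-17-2-5p) needed the P10 group, where they are high, to reach the filter's level of 4.05 CPM in 5 libraries. This level is scaled to plain library totals, with no TMM factor. On that scale, miR-20a-5p reached it in 4 adult libraries, miR-17-3p in 1, and miR-18a-5p, miR-18a-3p and miR-17-2-5p in 0. With no filter, when all 898 features were tested and 13.4% were lower, 10 of the 13 rows passed as lower and none as higher. The row added was miR-19a-5p (log2 fold change -2.24, edgeR adjusted p = 0.0248), and miR-20a-3p, miR-19b1-5p and miR-17-2-3p did not pass (adjusted p = 0.285, 0.310 and 0.487).

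miR-92a1-3p supplied most of the cluster's reads, 91.2% ± 1.67 in adults and 89.7% ± 1.71 at P10 (SD, n = 6 and 5). It lies last in the cluster, at 103641656 to 103641676, and shares its seed with miR-25, miR-92b, miR-363 and miR-32. Its level ran from 607 to 1001 CPM in adults (median 698.5), and was 2120, 2070.5, 1950, 2236 and 1754 CPM at P10. Every P10 library lay above every adult library, and the highest adult, replicate 1, stood apart from the other 5, which reached 737 CPM at most. The log2 change was -1.47 ± 0.13 (SE; edgeR adjusted p = 1.62e-06), and -1.42 ± 0.14 with the reads of miR-92a2-3p added (adjusted p = 3.08e-06). The 5p arm of the same hairpin, the neighbour miR-92a-5p, is a sequence of its own that miR-92a2 does not share. It ran from 14.8 to 26.0 CPM in adults (median 23.7), against 48.6, 70.6, 62.5, 56.4 and 63.8 CPM at P10, so the log2 change was -1.45 ± 0.18 (SE; adjusted p = 1.98e-05 by edgeR). No adult library reached the lowest P10 library for this arm either.

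Of the miR-19 family, miR-19b1-3p (103641540 to 103641562) was the second most abundant arm. It ran from 35.2 to 57.75 CPM in adults (median 39.99), against 144, 108, 137, 94.3 and 113.5 CPM at P10. The groups did not overlap, with a log2 change of -1.51 ± 0.16 (SE; adjusted p = 6.25e-06 by edgeR), and -1.52 ± 0.17 with the identical miR-19b2-3p added (adjusted p = 9.38e-06). miR-19a-3p (103641233 to 103641255), 1 base away in sequence, rested on 59 reads in all adult libraries and 298 in all P10 libraries. It ran from 0.691 to 7.56 CPM in adults (median 5.02), with 1 read in replicate 4, and was 13.9, 21.5, 20.3, 12.0 and 21.8 CPM at P10. It fell with a log2 change of -1.80 ± 0.33 (SE; adjusted p = 0.000548 by edgeR). The other arms were rare: miR-19a-5p had 4 reads in adults and 33 at P10, and miR-19b1-5p had 0 and 2. For miR-19b1-5p, a count of 0 allows up to 3 reads per library, or 1.11 to 2.54 CPM in the adult libraries, so its level there was not detectable at this depth.

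Both members with the miR-17 seed fell. miR-17-5p (103640915 to 103640937), the first arm of the cluster, ran from 6.77 to 15.1 CPM in adults (median 10.7), against 48.9, 39.7, 46.7, 35.6 and 44.5 CPM at P10. Its log2 change was -1.96 ± 0.21 (SE; edgeR adjusted p = 4.71e-06), and -2.01 ± 0.20 with miR-17-2-5p added (adjusted p = 3.08e-06). miR-20a-5p (103641372 to 103641394) ran from 3.45 to 7.26 CPM in adults (median 4.62), against 21.1, 23.5, 27.4, 21.1 and 24.7 CPM at P10, a log2 fold change of -2.24 ± 0.22 (SE; adjusted p = 3.41e-06). In both cases the lowest P10 library was well above the highest adult library. Of the other arms, miR-17-3p (103640952 to 103640973) fell with a log2 fold change of -1.22 ± 0.33 (SE; adjusted p = 0.00754) on 29 reads in adults and 103 at P10, and its adult maximum of 5.11 CPM came close to the P10 minimum of 5.38 CPM. miR-20a-3p had 7 reads in adults, with 0 in 4 of the libraries, and 24 at P10.

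miR-18a-5p (103641054 to 103641076), the only expressed arm with its seed among those looked up, had the largest fitted change of the cluster and the second lowest log2 fold change of all 457 tested miRNAs. This arm passed the filter only through P10, as no adult library reached the filter's level, so the rank is a description and not support. It had between 1 and 5 reads in each adult library, 0.382 to 3.44 CPM (median 1.06), against 19.8, 8.74, 10.8, 7.12 and 8.32 CPM at P10. P10 replicate 1 held more than any other library, and no adult library reached the lowest P10 library. The log2 change was -3.07 ± 0.44 (SE; edgeR adjusted p = 7.02e-05), on 14 adult reads in all, so its size is poorly fixed. miR-18a-3p (103641095 to 103641116) fell with a log2 fold change of -1.89 ± 0.37 (SE; adjusted p = 0.000762), to 1.84 ± 1.29 CPM in adults, against 6.64 ± 1.94 CPM at P10 (SD, n = 6 and 5).

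**Figure D1:**
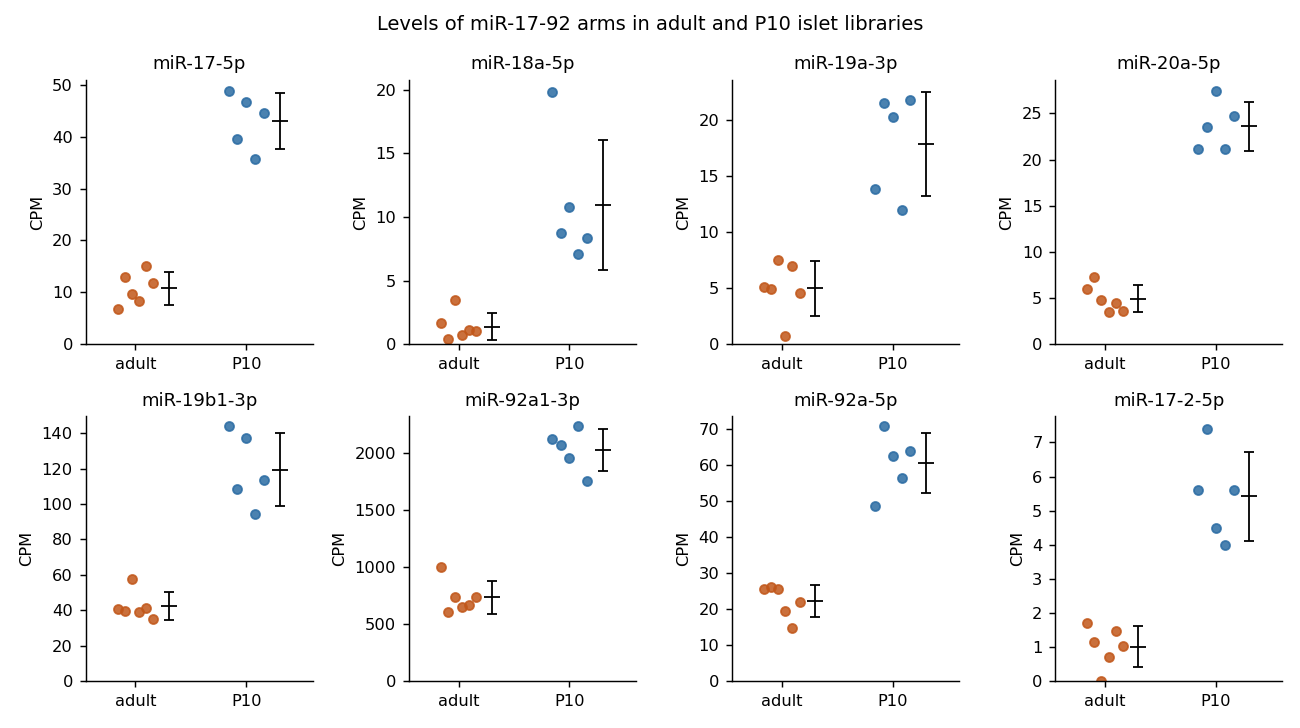
Level in CPM (y axis from 0, linear, own scale per panel) of the 6 leading cluster arms, the neighbour miR-92a-5p and the chromosome X copy miR-17-2-5p in 6 adult libraries (left in each panel) and 5 P10 libraries (right). Each point is a library and the bars show mean ± SD. In every panel all P10 libraries lie above all adult libraries, for miR-92a1-3p between 1754 and 2236 CPM against 607 to 1001 CPM.

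Arms differ by at most 3 bases in length (20 to 23), but ligation and PCR favour some sequences, so the order of levels between arms is only approximate. At P10 the order was miR-92a1-3p, miR-19b1-3p, miR-17-5p, miR-20a-5p, miR-19a-3p and miR-18a-5p. There the ranges of miR-20a-5p and miR-19a-3p overlapped (21.1 to 27.4 and 12.0 to 21.8 CPM), as did those of miR-19a-3p and miR-18a-5p. In adults miR-92a1-3p and miR-19b1-3p kept the first places with ranges of their own, while miR-17-5p, miR-19a-3p and miR-20a-5p overlapped in part. miR-18a-5p averaged 1.39 CPM in adults and overlapped miR-19a-3p.

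Whether the members fell by different amounts was asked with the log2 ratio of reads between leading arms within each library, a measure that does not depend on library scaling. All 15 pairs were compared by a two-sided exact permutation test over the 462 ways to assign libraries to the ages, for which 0.00216 is the smallest p possible. After adjustment over the 15 ratios 0 passed, and 4 had an unadjusted p below 0.05, all of them with miR-18a-5p or miR-20a-5p over miR-19b1-3p or miR-92a1-3p. The log2 ratio of miR-20a-5p to miR-92a1-3p was -7.16 ± 0.43 in adults and -6.42 ± 0.27 at P10 (SD, n = 6 and 5), a difference of -0.75 (exact permutation p = 0.0152, adjusted p = 0.0568). That of miR-18a-5p to miR-19b1-3p differed by -1.38 (exact permutation p = 0.00433, adjusted p = 0.0568), and here the groups did not overlap. At the other end, miR-19b1-3p to miR-92a1-3p was -4.11 ± 0.34 in adults and -4.09 ± 0.31 at P10, a difference of -0.01 (exact permutation p = 0.942, adjusted p = 0.957). Without adult replicate 3, which held 5 of the 14 adult reads of miR-18a-5p, 3 ratios with miR-18a-5p passed (over miR-20a-5p, miR-19b1-3p and miR-92a1-3p, adjusted p = 0.0397 each). With the reads of the identical copies on chromosome X added, an alternative chosen after seeing the data, 4 of the 15 passed, the same 4 pairs that had an unadjusted p below 0.05 (exact permutation, adjusted p = 0.0487 each). Their differences were then -1.37 for miR-18a-5p over miR-19b1-3p, -1.45 for miR-18a-5p over miR-92a1-3p, -0.72 for miR-20a-5p over miR-19b1-3p and -0.79 for miR-20a-5p over miR-92a1-3p. In the same order, these differences were -1.38, -1.40, -0.73 and -0.75 before the copies were added, with an adjusted p of 0.0568 each. Whether ratios passed the threshold therefore depended on how reads of identical arms were counted and on adult replicate 3, while these 4 differences moved little when copies were added.

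The use of the 2 arms of a hairpin could be tested for 3 hairpins in which both arms passed the filter, counting miR-92a-5p as the 5p arm of miR-92a1. Over 128 hairpins, whose 5p to 3p log2 read ratios were tested with limma, 21.1% passed, and 0 of the 3 did. At an unadjusted p below 0.05 it was 40.6% of all hairpins and 1 of the 3. For miR-92a1 the 3p arm prevailed strongly at both ages, with a log2 ratio of -5.04 in adults and -5.07 at P10 (difference 0.04 ± 0.21, SE; limma adjusted p = 0.916). For miR-17 the 5p arm prevailed, with 2.01 in adults and 2.78 at P10 (difference -0.77 ± 0.43; adjusted p = 0.186), and the difference passed without adult replicate 2 (-1.13, adjusted p = 0.0220). For miR-18a the ratio was -0.39 in adults and 0.66 at P10 (difference -1.05 ± 0.41; adjusted p = 0.0831). It passed without adult replicate 3 (-1.26, adjusted p = 0.0260) and with a prior count of 2 (-0.89, adjusted p = 0.0464).

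The paralogs of the cluster, which arose by duplication and share its seeds, were tested alongside. In the miR-106b-25 cluster on chromosome 12, 4 of 6 arms fell in adults and none rose, where 29.5% of all tested miRNAs fell, and the median of their log2 fold changes was -0.62. This count was 6 with plain library totals and 3 with DESeq2 size factors or upper-quartile factors, without miR-106b-3p. The arms that fell were miR-93-5p (log2 fold change -1.30), miR-106b-5p (-0.90), miR-25-3p (-0.55) and miR-106b-3p (-0.39). miR-93-5p had 148 ± 21.6 CPM in adults and 363 ± 23.1 CPM at P10, without overlap (SD, edgeR adjusted p = 4.71e-06). Its fall was larger than that of the cluster's miR-17-3p (-1.22) and smaller than those of the other tested cluster arms. Of the 7 arms counted on chromosome X, miR-17-2 included, 4 were tested and 3 fell. All 3 have a mature arm identical to a member's, and such reads cannot be placed, so their falls are not separate evidence on chromosome X. The tested arm with a sequence of its own, miR-363-3p, did not pass (log2 fold change -0.37, edgeR adjusted p = 0.261). It had 26.1 ± 9.40 CPM in adults and 33.5 ± 7.55 CPM at P10. Elsewhere in the genome miR-92b-3p did not pass (log2 fold change -0.29, edgeR adjusted p = 0.212), and miR-32-5p, with the seed of miR-92a, rose to 21.1 ± 5.55 CPM in adults, against 10.6 ± 4.83 CPM at P10 (log2 fold change 0.95 ± 0.29, SE; adjusted p = 0.0156), as did 21.2% of all tested miRNAs. With plain library totals miR-32-5p did not pass (log2 fold change 0.69, adjusted p = 0.0617) and miR-92b-3p did, as lower (-0.56, adjusted p = 0.0185). With reads as the authors placed them, the 3 identical copies on chromosome X fell as follows: miR-17-2-5p by 2.28 on the log2 scale (adjusted p = 0.000183), miR-19b2-3p by 1.56 (adjusted p = 6.05e-05) and miR-92a2-3p by 0.83 (adjusted p = 0.00171).

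**Figure D2:**
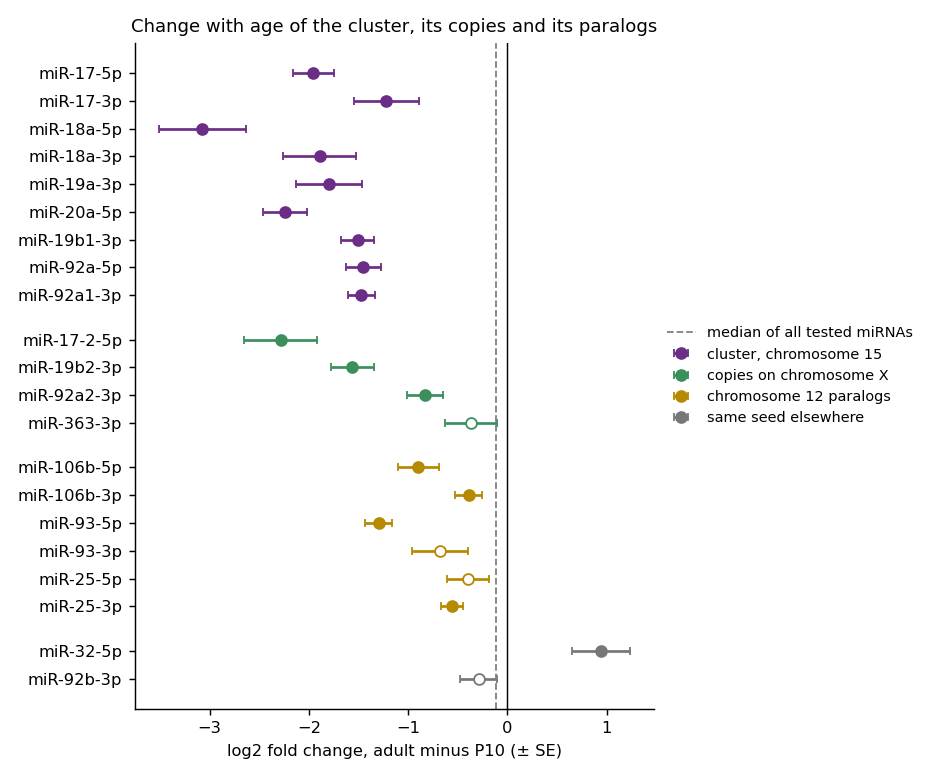
Log2 fold change, adult minus P10, with its SE for tested cluster arms, the copies on chromosome X, the chromosome 12 paralogs and relatives with a shared seed. Filled points passed edgeR's test (adjusted p below 0.05), open points did not, and the dashed line is the median of all tested miRNAs (-0.11). The cluster arms lie between -3.07 and -1.22, and miR-32-5p is the one arm above 0.

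Whether members changed more than paralogs was tested directly, as the ratio of reads between a member and a paralog in each library, for 5 pairs with adjustment over the 5. In 4 pairs the ratio was lower in adults by about the same amount, with no overlap between the ages. miR-92a1-3p is the member in both the third and the last of these, so the 4 are not all separate members. miR-17-5p over miR-106b-5p, a shared seed, had a log2 ratio of -1.62 ± 0.16 in adults and -0.55 ± 0.22 at P10 (SD, n = 6 and 5), a difference of -1.07 (exact permutation p = 0.00216, adjusted p = 0.00361). miR-20a-5p over miR-93-5p had -4.86 ± 0.24 in adults and -3.94 ± 0.13 at P10, a difference of -0.93 (exact permutation, same p and adjusted p). miR-92a1-3p over miR-25-3p had -1.36 ± 0.19 in adults and -0.42 ± 0.22 at P10, a difference of -0.94 (exact permutation, same p and adjusted p). As the reads were placed, miR-25-3p thus had more reads than miR-92a1-3p at both ages, and by more in adults. With the identical miR-92a2-3p added, this log2 ratio ran from -0.55 to 0.0038 at P10, so the reads were about equal in the highest P10 library. miR-92a1-3p over miR-92b-3p had 1.24 ± 0.30 in adults and 2.40 ± 0.17 at P10, a difference of -1.16 (exact permutation p = 0.00433, adjusted p = 0.00541). The identical arms miR-19b1-3p and miR-19b2-3p had a log2 ratio of 1.35 ± 0.29 in adults and 1.31 ± 0.17 at P10 (difference 0.04, exact permutation p = 0.794, adjusted p = 0.794), with groups that overlapped. Since reads of identical arms cannot be placed, this ratio cannot show whether member and paralog changed differently. With the identical copies added, the first 4 differences were -1.11, -0.93, -0.89 and -1.11, and all 4 passed without overlap (exact permutation, adjusted p = 0.00289 for the first 3 and 0.00433 for the last, over these 4).

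**Figure D3:**
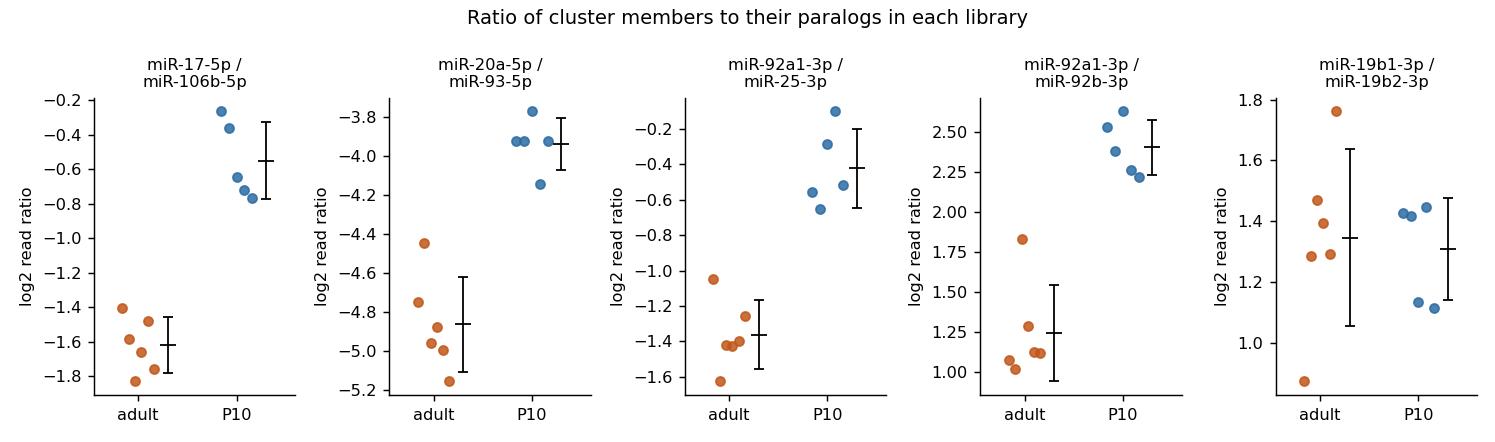
Log2 ratio of reads (y axis, own scale per panel) of a cluster member to a paralog in 6 adult libraries (left) and 5 P10 libraries (right), with mean ± SD. In the first 4 panels every adult library lies below every P10 library, by about 1 on the log2 scale on average, and in the last, which compares identical mature arms, the groups overlap.

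The seed families, as far as they could be looked up, were lower in adult islets, and the cluster's share of the miR-92 and miR-17 seeds was lower too. Seeds were searched among the 364 of 792 sense features matched to a RefSeq mature sequence, so family members among the rest would be missed. The miRNAs found with the miR-92 seed (6 arms) together held 3025 ± 341 CPM in adults and 5315 ± 507 CPM at P10 (SD, n = 6 and 5). miR-92a1-3p made up 20.9% to 27.1% of their reads in adults (mean 24.0%) and 35.1% to 42.1% at P10 (mean 38.2%), and miR-25-3p made up most of the rest. The miR-17 seed (6 arms, with miR-93-5p in the lead) held 198 ± 25.4 CPM in adults and 499 ± 30.1 CPM at P10, of which miR-17-5p and miR-20a-5p gave 6.25% to 9.30% in adults and 11.4% to 15.3% at P10. The miR-19 seed (3 arms) held 63.7 ± 12.7 CPM in adults and 186 ± 32.1 CPM at P10. There the cluster's share was about equal at both ages, 74.0% ± 3.97 in adults and 74.0% ± 2.08 at P10, and the 1 relative outside the cluster was miR-19b2-3p. No other arm with the seed of miR-18a-5p was found among the features searched. These shares are given without a test and treat reads of identical arms as the authors placed them.

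**Figure D4:**
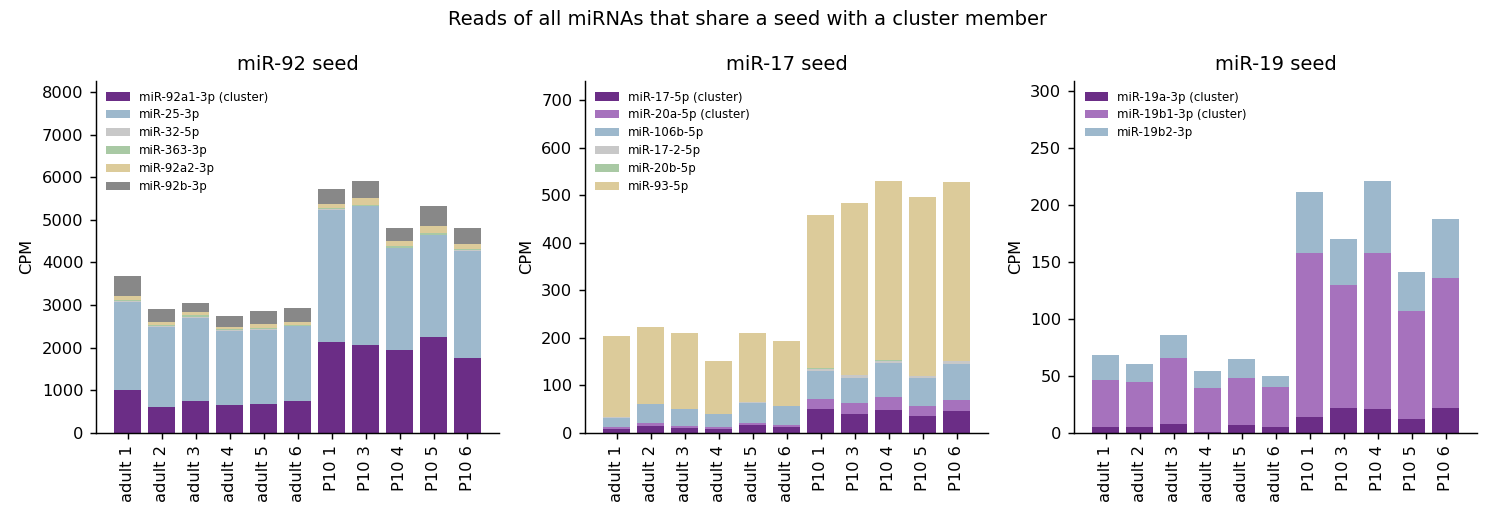
Stacked CPM (y axis, from 0) of the arms found to share the seed of miR-92a, miR-17 or miR-19 in each library, adults left and P10 right, with the cluster's arms in purple at the bottom. The miR-92 seed is led by miR-25-3p and the miR-17 seed by miR-93-5p at both ages, and the miR-19 seed is led by the cluster's miR-19b1-3p.

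Markers of other cell types in the same libraries were not level between the ages. The mesenchymal list (8 arms of miR-143, miR-145, miR-152 and miR-199a, all tested) had 5 arms lower and 1 higher in adults (median log2 change -0.82). Its summed level was 17460 to 58591 CPM in adults and 33461 to 61341 CPM at P10. Its mean log2 CPM ran from 6.79 to 7.98 in adults, highest in replicate 1, which also had the highest miR-92a1-3p of the adults, and from 8.14 to 8.49 at P10. With this mean as a covariate, which correlates with age at -0.86, 3.28% of the 457 miRNAs passed as lower in adults, and 3 of the 9 tested members did: miR-17-5p (log2 fold change -2.19, edgeR adjusted p = 0.0171), miR-19b1-3p (-1.47, adjusted p = 0.0273) and miR-92a1-3p (-1.16, adjusted p = 0.0131). The other 6 kept a negative log2 fold change, between -3.50 for miR-18a-5p and -0.47 for miR-18a-3p, with adjusted p between 0.0591 and 0.710. Outside the members, the paralog miR-93-5p also passed as lower with the covariate (log2 fold change -0.92, edgeR adjusted p = 0.0341). No other paralog or relative passed, nor did the neighbour miR-92a-5p.

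The leukocyte list (7 arms, 4 tested, 1 lower) summed to 249 to 832.5 CPM in adults and 681 to 1427 CPM at P10, the erythroid list (4 arms, 2 tested, 0 called by edgeR; the miR-144 and miR-451 genes) to 14.5 to 63.8 CPM in adults and 24.2 to 72.3 CPM at P10. The acinar list (6 arms, 3 tested, 2 higher) summed to 28.6 to 127 CPM in adults and 22.2 to 37.7 CPM at P10. The islet endocrine list, of miR-375, miR-7, miR-184 and miR-204 (12 arms, 9 tested, 6 higher and 1 lower, median log2 change 0.77), summed to 257093 to 329404 CPM in adults and 115993 to 168777 CPM at P10, the highest sum of any list at both ages. The muscle list came down to miR-133b-3p, which reached at most 1.53 CPM in any library, and the neuronal list to the miR-124 arms, which summed to at most 2.29 CPM. No arm of these lists was at 0 in every library. The names miR-126, an endothelial marker, miR-214, miR-199b, miR-486, miR-1, miR-133a, miR-206 and miR-9 matched no sense row for these lists. Reads of these miRNAs counted under another name, such as that of an antisense row, were not looked for. The part that leukocytes, blood or acinar cells play in the cluster's change was not tested.

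**Figure D5:**
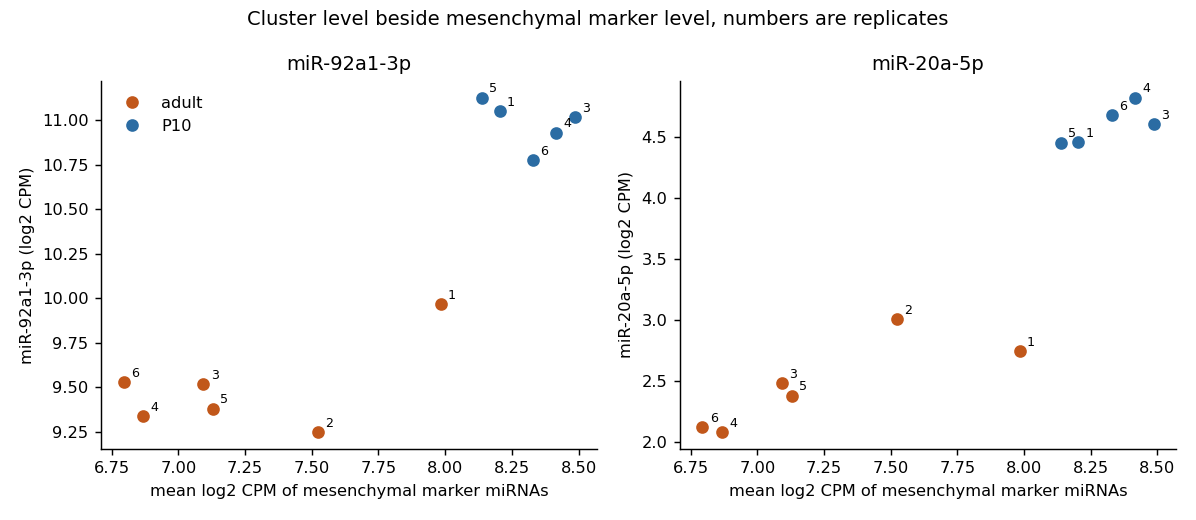
Level of miR-92a1-3p (left) and miR-20a-5p (right) in log2 CPM (y axis) against the mean log2 CPM of mesenchymal marker miRNAs (x axis), a point per library with its replicate number. The ages are apart on both axes, and adult replicate 1 (x = 7.98) lies nearest to the P10 libraries on the x axis.

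Outside the cluster and its relatives, the features whose log2 CPM followed miR-92a1-3p most closely over the 11 libraries were the antisense feature miR-3120-5p (Pearson r = 0.984), miR-199a-5p (0.975), miR-542-5p (0.974), miR-181a-3p (0.971) and miR-181c-3p (0.968), given as a description only, since the 2 ages lie apart. All 5 fell in adults, with log2 fold changes between -3.08 and -2.26, and miR-199a-5p is also an arm of the mesenchymal list. After each age's mean was subtracted, the closest were miR-350-5p (0.859), miR-222-3p (0.828), miR-542-5p (0.814), miR-760-3p (0.808) and the antisense miR-3120-5p (0.804). On that scale r with miR-92a1-3p ran from -0.65 for miR-17-5p to 0.73 for miR-18a-3p over the other 7 tested cluster arms. It was -0.01 for miR-19b1-3p and 0.17 for the neighbour miR-92a-5p. Over all libraries, where the ages lie apart, it ran from 0.799 to 0.941 for the same 7 arms. Among the paralogs and relatives it ran from -0.813 for miR-32-5p to 0.959 for miR-93-5p, above all 7 cluster arms. A high r over all libraries was thus not particular to the cluster. Most of the 7 cluster arms had few reads.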

How the data were processed

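Per the labels' protocols, total islet RNA was extracted with Trizol and made into libraries with a TruSeq small RNA kit, by adapter ligation, limited PCR and size selection. Per the file headers, the authors' values are raw counts of reads, 1 row for each mature arm at each Rnor_5.0 locus. The submitters' processing notes name edgeR and DESeq without a role. The sources used here do not give the aligner or how reads with several loci were placed. Reads carry no stated molecular identifiers, so floors cover counting error only.

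The series-wide table held the same counts as the library tables. Rows of 1 name entered once with their highest count in each library, which gave 898 features. Each member had 1 row. In R 4.3.3, edgeR 4.0.16 was run with filterByExpr, TMM factors and robust quasi-likelihood fits of age (adult minus P10) over 457 features. SEs came from the quasi-likelihood statistic, and log2 CPM used a prior count of 2. Ratios used a prior count of 0.5, and arm usage used limma 3.58.1. Alternatives were other scalings, filters, limma-voom, DESeq2 1.42.0, a replicate block, a mesenchymal covariate, summed rows, merged identical sequences (for the ratios chosen after seeing the data) and leaving out each library. The edgeR, limma and permutation steps were tested on simulated data.

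Members, relatives and marker lists were chosen with earlier results of these data known. All member arms are named. Relatives are those of the paralog clusters or with a shared seed, and the features most like miR-92a1-3p are the 5 with the highest Pearson r. The cell type markers are well-known ones of each type. Sequences come from RefSeq (GRCr8), matched by gene symbol and arm. The lowest chi-square per degree of freedom between libraries of one age was 11.7, so none was counted as a duplicate. P-values measure the spread between these libraries.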

Additional observations from a re-analysis of the deposited data

Results flagged for a closer look

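In a group of 4 to 10 samples a library was singled out when its gap to the nearest other library was large against the group's range, which chance does in about 1 in 20 groups. Over 62 group-wise looks at member levels and ratios, 13 were singled out. Among adults, replicate 1 was high for miR-92a1-3p (1001 CPM, next 737) and for the summed cluster (1070 CPM, next 819), and replicate 3 was high for miR-19b1-3p (57.7 CPM, next 40.9). Replicate 4, with 1 read of miR-19a-3p, stood apart in the log2 ratios of miR-17-5p over miR-19a-3p (3.06), miR-19a-3p over miR-19b1-3p (-5.24) and miR-19a-3p over miR-92a1-3p (-9.29). Adult replicate 2 was high for miR-20a-5p over miR-92a1-3p (-6.35), and adult replicate 3 for miR-92a1-3p over miR-92b-3p (1.83). P10 replicate 1, with 60 reads of miR-18a-5p, stood apart in miR-17-5p over miR-18a-5p (1.30), miR-18a-5p over miR-20a-5p (-0.092) and miR-18a-5p over miR-19b1-3p (-2.85). The same library stood apart in miR-17-5p over miR-20a-5p (1.20) and miR-20a-5p over miR-19b1-3p (-2.76).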

How the results depend on the processing

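The 9 calls of lower level stayed at 9 with DESeq2 size factors, library totals, upper-quartile factors, limma-voom, DESeq2, summed rows, merged identical sequences and without any 1 library (9 to 9), and were 10 with no filter. Replicate numbers did not pair the libraries: same-numbered libraries had deviations correlated between -0.21 and 0.20, and 1 of 5 correlated best with its own number. A replicate block, which leaves out adult replicate 2, gave 9. Over these settings the log2 change of miR-92a1-3p ran from -1.75 to -1.30. Plain library totals shifted the median of all features by -0.27 and upper-quartile factors by 0.16. The number was 5 (5 on chromosome 15) with a mean CPM of at least 10, where only 5 rows were tested, and 3 (3) with the mesenchymal covariate; the cause of this last change was not tested. No within-cluster ratio passed except 3 without adult replicate 3 (0 to 3) and 4 with the reads of identical copies added, which was chosen after seeing the data; 4 paralog ratios passed under every setting run (4 to 4). Arm usage gave 1 call with a prior count of 2 and 0 to 1 without 1 library. Values near 0 changed sign without passing a test. The miR-92a1 arm ratio was -0.064 with the replicate block and -0.064 to 0.12 without 1 library. miR-17-5p over miR-19a-3p was 0.0026 with medians and -0.40 to 0.15 without 1 library. miR-19b1-3p over miR-92a1-3p was 0.0076 with a prior count of 2 and -0.13 to 0.086 without 1 library. miR-19b1-3p over miR-19b2-3p was -0.073 with medians and -0.045 to 0.13 without 1 library. Arms of a few reads per adult library limit the ratios with miR-18a-5p, miR-19a-3p and miR-17-3p.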
